A study of Mus musculus with 6 samples.

Results

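The amino acid transporters of the mouse submandibular gland were taken as all genes on the array whose symbol belongs to the Slc1, Slc3, Slc6, Slc7, Slc36, Slc38 or Slc43 solute carrier families, together with Slc16a10. This gave 63 of the 19505 named genes. RNA of the whole gland had been measured in 3 sham-operated mice (Cont) and 3 mice whose ovaries were removed on both sides (OVX), with 1 Clariom S array per mouse. All 6 animals were BALB/c females without a transgene, operated at 6 weeks of age and sampled 8 weeks later, at 14 weeks. The comparison asks how loss of the ovaries, and with them of their estrogen, altered the transcripts of the gland, and no OVX group given estrogen back was analysed here. A gene became a member by its symbol alone, whatever its change, although the families were picked with earlier results of these data known. The Slc6 family also carries monoamines, GABA, taurine and creatine, and Slc7a6os, a transcript named for lying opposite Slc7a6, matched only by its symbol.

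Amino acids do not cross the plasma membrane by themselves, and each cell takes up, exchanges and recycles them through carriers with overlapping substrates. Sodium-coupled carriers such as those of SLC38 and SLC1 load the cell with glutamine, alanine or glutamate, and obligatory exchangers trade part of that pool for leucine and other essential amino acids. The exchangers of the SLC7 light chains work only as pairs with a heavy chain of SLC3, which brings them to the membrane. In a salivary gland the acinar cells build secretory proteins in bulk and so consume amino acids, and the ducts modify the fluid on its way to the mouth. When amino acids run short, the factor ATF4 binds elements in many carrier, enzyme and tRNA synthetase genes and raises their transcription.

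The values are log2 intensities as the authors deposited them. The array medians lay between 5.20 and 5.22, and arrays correlated at 0.981 to 0.989 within a group and at 0.970 to 0.979 between groups. The files hold no detection call. As a yardstick for dim signal, the 95th percentile of 1412 olfactory and vomeronasal receptor genes was taken on each array, and it lay between 4.48 and 4.67. Of the 63 transporters, 36 were above this receptor range on all 6 arrays and 15 on none. Among the markers of the gland itself, 9 of 10 acinar and 10 of 10 granular convoluted tubule genes were above it on every array. Intensities of different probe sets are not comparable as amounts, so no gene's level was set against another's.

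After OVX 3 transporters rose and 3 fell. Transcripts of the creatine carrier (Slc6a8), the taurine carrier (Slc6a6) and the neutral amino acid exchanger LAT2 (Slc7a8) rose 1.6-fold to 2.11-fold. Those of the leucine exchanger LAT1 (Slc7a5), the glutamine carrier SNAT1 (Slc38a1) and the broad carrier ATB0,+ (Slc6a14) fell 2.16-fold to 2.47-fold. A gene was called at an adjusted p under 0.05 in limma, with the adjustment over all named probe sets. By the same rule 2.57% of all genes were called higher and 1.07% lower. The share of transporters called was 9.52%, and at an unadjusted p under 0.05 limma gave 7 higher and 11 lower, beside 8.24% and 7.59% of all genes. The study's rule asks for a 1.5-fold difference or more and a p of 0.05 or less, taken here before adjustment. With the methods' t-test 3 transporters were higher and 6 lower by it, beside 2.92% and 1.34% of all genes. With limma's p in its place 3 were higher and 7 lower, beside 3.28% and 1.71%. All OVX arrays lay above all Cont arrays for 8 transporters and below them for 12, beside 10.7% and 10.6% of all genes. Most members moved little. Changes ran from −1.30 to 1.08 on the log2 scale, OVX minus Cont, with a median of −0.04 beside −0.02 over all genes, and 28 were positive and 35 negative. In whole gland RNA, fewer cells of a type and less RNA per cell cannot be told apart.

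**Figure D1:**
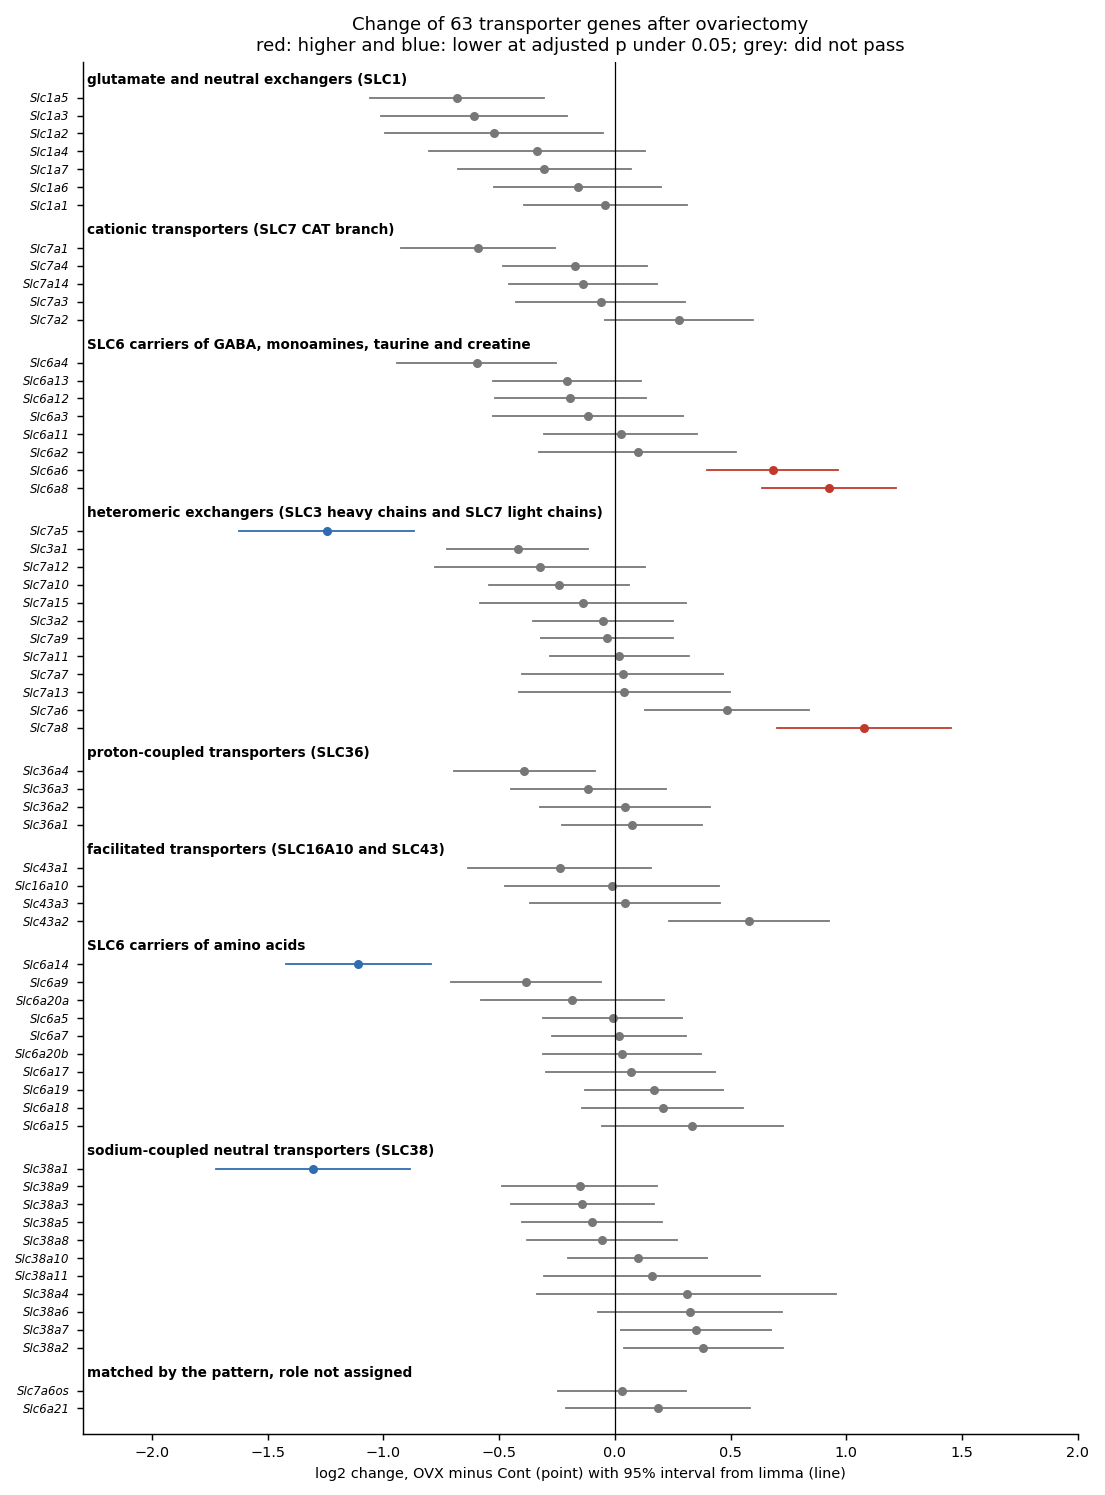
Log2 change after OVX (OVX minus Cont, horizontal axis) of each of the 63 transporter genes, grouped by role, with points for the change and lines for the 95% interval from limma. The 3 red genes (Slc7a8, Slc6a8, Slc6a6) rose and the 3 blue genes (Slc38a1, Slc7a5, Slc6a14) fell at an adjusted p under 0.05, and the intervals of most grey genes span 0.

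The largest falls were in carriers of neutral amino acids. Slc38a1, which brings glutamine and alanine into the cell with sodium, read 8.99, 8.69 and 9.0 in Cont and 7.78, 7.16 and 7.83 in OVX. Every OVX array was below every Cont array, with OVX 2 the lowest of all, and the level was 2.47-fold lower (log2 change −1.30 ± 0.19 SE, adjusted p = 0.00273). Slc7a5, the light chain LAT1 that exchanges glutamine for leucine, phenylalanine and other large neutral amino acids, read 8.45, 8.14 and 7.78 in Cont and 6.85, 6.93 and 6.86 in OVX. The 3 Cont mice differed among themselves far more than the 3 OVX mice (SD 0.33 against 0.05), yet the groups did not overlap, and the gene fell 2.37-fold (log2 change −1.25 ± 0.17 SE, adjusted p = 0.00191). Slc6a14 carries neutral and cationic amino acids with sodium and chloride, and read 6.68, 6.65 and 6.75 in Cont and 5.73, 5.37 and 5.65 in OVX. The groups were well apart, and the level was 2.16-fold lower (log2 change −1.11 ± 0.14 SE, adjusted p = 0.00118). These 3 calls held whichever array was left out.

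The genes that rose carry other cargo in part. Slc7a8, the light chain LAT2, which like LAT1 exchanges neutral amino acids, read 7.69, 7.56 and 8.04 in Cont and 8.68, 8.74 and 9.09 in OVX. All OVX arrays were above all Cont arrays, and the gene rose 2.11-fold (log2 change 1.08 ± 0.17 SE, adjusted p = 0.00472). Slc6a8, the creatine transporter, read 8.57, 8.61 and 8.47 in Cont and 9.39, 9.46 and 9.58 in OVX. Within each group the arrays were close together (SD 0.07 and 0.10), and the rise was 1.90-fold (log2 change 0.92 ± 0.13 SE, adjusted p = 0.00239). Slc6a6, the taurine transporter, read 6.96, 7.06 and 7.11 in Cont and 7.78, 7.73 and 7.66 in OVX. Its groups did not overlap either, and it rose 1.6-fold (log2 change 0.68 ± 0.13 SE, adjusted p = 0.0142), but it did not pass without Cont 1 (adjusted p = 0.0564) or without OVX 1 (0.0734). Slc7a8 and Slc6a8 passed in each of the 6 fits with an array left out. When the methods' t-test was adjusted in the same way it called 1 of the 6 genes, Slc6a8 (adjusted p = 0.0470), and left Slc6a6 at 0.0557, Slc6a14 at 0.0699, Slc7a5 at 0.125, Slc7a8 at 0.149 and Slc38a1 at 0.151. Quantile normalization called 3 transporters higher and 5 lower, and the trend and robust options called 9, adding Slc1a5, Slc43a2 and Slc7a1.

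**Figure D2:**
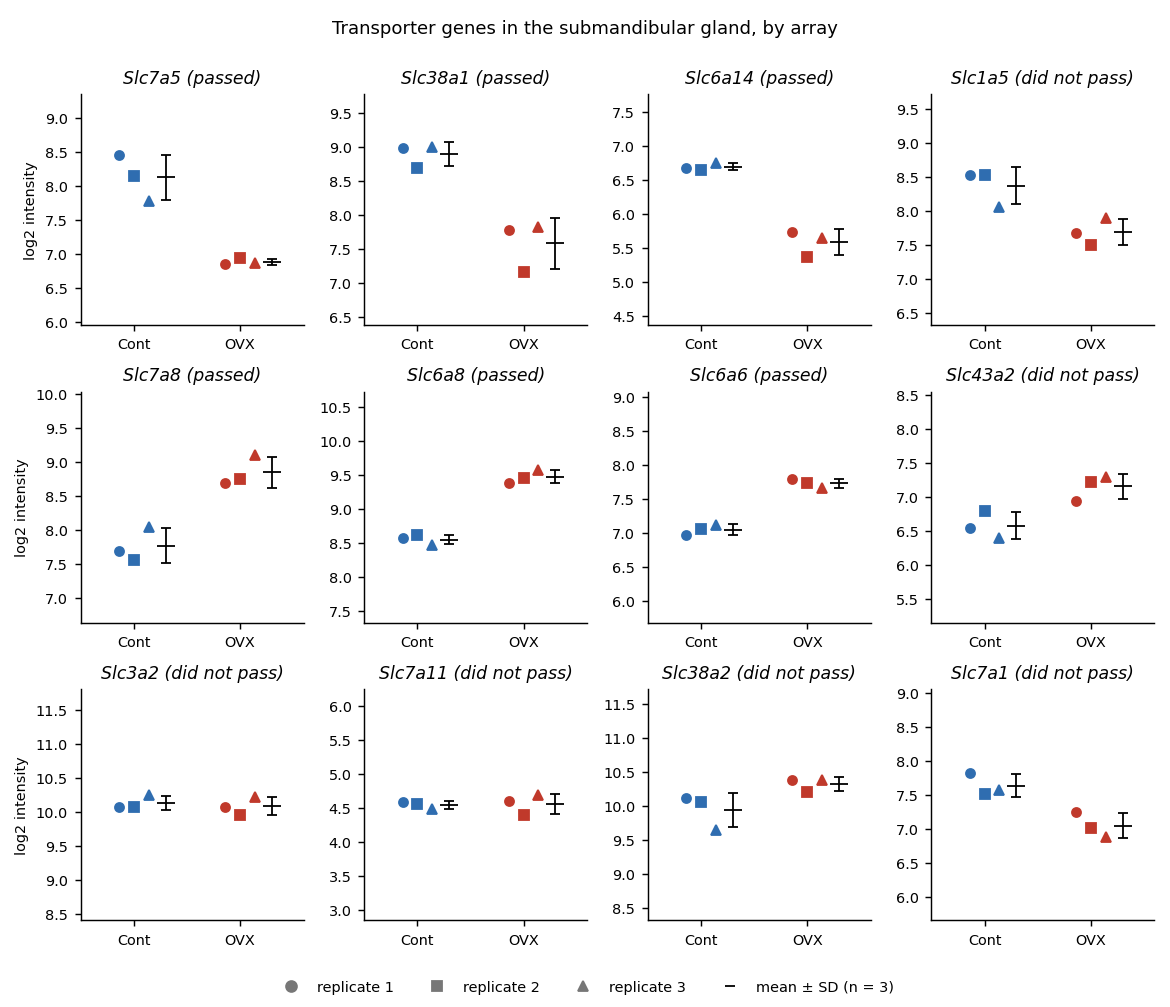
Log2 intensity (vertical axis) of 12 transporter genes on each array, with Cont in blue, OVX in red, 1 symbol per replicate number, and bars for the mean ± SD of 3 arrays. Panels are marked as passed or did not pass at an adjusted p under 0.05. In the 6 genes that passed the groups do not overlap, while those of Slc3a2 and Slc7a11 lie over each other.

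LAT1 and LAT2 share a heavy chain. Slc3a2, the 4F2hc heavy chain of LAT1, LAT2 and the cystine exchanger, read 10.08, 10.08 and 10.26 in Cont and 10.08, 9.96 and 10.22 in OVX. The groups overlapped, and the change was −0.05 with a 95% interval from −0.36 to 0.25 (adjusted p = 0.899). On each array the difference between the Slc7a8 and Slc7a5 readings was taken, of which only the shift between groups can be read, because the probe sets differ. The difference was −0.76, −0.59 and 0.26 in Cont and 1.84, 1.81 and 2.23 in OVX, a shift of 2.32 on the log2 scale. The difference of Slc3a2 from Slc7a5 shifted by 1.19 in the same way. These pairs were chosen after their values had been seen, so the shifts are a description without a test. Slc7a11, the cystine and glutamate exchanger xCT, read 4.60, 4.57 and 4.49 in Cont and 4.60, 4.41 and 4.70 in OVX. It was dim, above the receptor range on 3 of 6 arrays, and its groups overlapped (change 0.02, 95% interval −0.28 to 0.32, adjusted p = 0.965).

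The other heteromeric chains held no further call. Slc3a1, the rBAT heavy chain, changed by −0.42 (adjusted p = 0.152) with every array under the receptor range, and its partner Slc7a9 by −0.03. Slc7a6, the light chain y+LAT2, changed by 0.48 (adjusted p = 0.154), and all its OVX arrays were above all Cont arrays. Over the 12 heavy and light chains, 1 rose, 1 fell and the median change was −0.04.

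The changes of the SLC1 family had 1 sign, but none passed. Limma and the adjusted methods' t-test each called 0 of the 7 members, 3 had an unadjusted p under 0.05 in limma and 1 in the t-test (13.6% of all genes in the t-test, in either direction), and the trend and robust options of limma called 1. All 7 members had a negative change, from −0.68 to −0.04 with a median of −0.34, beside 10355 negative changes among all 19505 genes. For 3 of the 7 every OVX array was below every Cont array, beside 10.6% of all genes. Only 2 of the 7 were above the receptor range on every array. Slc1a5, the exchanger ASCT2 that takes up glutamine, read 8.53, 8.53 and 8.06 in Cont and 7.68, 7.5 and 7.89 in OVX. The groups did not overlap, Cont 3 and OVX 3 being nearest to each other, and the gene just missed the threshold (log2 change −0.68 ± 0.17 SE, adjusted p = 0.0547). It passed without Cont 3 (adjusted p = 0.0234) and with quantile normalization (0.0280). Slc1a3, the glutamate and aspartate carrier GLAST, read 4.33, 4.99 and 4.80 in Cont and 3.95, 4.04 and 4.30 in OVX. It was above the receptor range on 2 of 6 arrays, and the change of −0.61 did not pass (adjusted p = 0.108; without Cont 1, 0.0347). The neutral exchanger Slc1a4 (change −0.34, adjusted p = 0.491) and the glutamate carrier Slc1a1 (change −0.04, adjusted p = 0.935), which lay under the receptor range on every array, overlapped between groups.

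Among the 5 genes of the cationic branch of SLC7 0 were called by limma or the adjusted methods' t-test, 1 had an unadjusted p under 0.05 in each, and 4 had a negative change. Slc7a1, the arginine and lysine carrier CAT1, read 7.82, 7.51 and 7.57 in Cont and 7.24, 7.0 and 6.88 in OVX. All OVX arrays were below all Cont arrays, and the change of −0.59 ± 0.15 SE had an adjusted p of 0.0604, which quantile normalization brought to 0.0386 and the trend and robust options to 0.0106. Slc7a2, the carrier CAT2 of the same substrates, moved the other way by 0.28 (adjusted p = 0.396).

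Within the 11 SLC38 genes Slc38a1 stood alone, the others changing by −0.15 to 0.38. Slc38a2, the carrier SNAT2 that shares neutral substrates with SNAT1, read 10.10, 10.05 and 9.64 in Cont and 10.37, 10.20 and 10.38 in OVX. Its OVX arrays were all above its Cont arrays, but the change of 0.38 did not pass (adjusted p = 0.257). The difference between the Slc38a2 and Slc38a1 readings shifted by 1.69, again a pair chosen after the values were seen. Slc38a9, a lysosomal carrier that reports arginine to mTORC1, changed by −0.15 (adjusted p = 0.684). For Slc38a7 all OVX arrays were above all Cont arrays, at 0.35 (adjusted p = 0.276).

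Limma and the adjusted methods' t-test called 0 of the 4 proton-coupled and 0 of the 4 facilitated carriers, and 1 in each group had an unadjusted p under 0.05 by either test. Slc43a2, the carrier LAT4 that lets branched-chain amino acids and phenylalanine pass without exchange, read 6.54, 6.80 and 6.40 in Cont and 6.95, 7.23 and 7.31 in OVX. Its groups did not overlap, and the change of 0.58 ± 0.16 SE had an adjusted p of 0.0746, or 0.0182 with the trend and robust options. Slc16a10, the aromatic amino acid carrier TAT1, changed by −0.01 (adjusted p = 0.986) with Cont values from 3.91 to 4.77. Slc36a4 changed by −0.39 (adjusted p = 0.182), and Slc36a1, the lysosomal carrier PAT1, by 0.07 (adjusted p = 0.848).

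In the SLC6 family the 10 carriers of amino acids held the fall of Slc6a14 and no other call, with a median change of 0.025. The glycine transporter Slc6a9 had all OVX arrays below all Cont arrays at −0.38 (adjusted p = 0.221). Slc6a20a and Slc6a20b, near-identical copies in the mouse whose probes may share signal, changed by −0.18 and 0.03. The 8 carriers of GABA, monoamines, taurine and creatine held the rises of Slc6a8 and Slc6a6. Slc6a4, the serotonin transporter, read 4.52, 4.80 and 4.70 in Cont and 3.81, 4.22 and 4.20 in OVX, was above the receptor range on 2 of 6 arrays and changed by −0.60 (adjusted p = 0.0653).

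Promoters were read because ATF4 is known to act on several of these genes through an element made of parts of the C/EBP and ATF sites. RefSeq promoters on build GRCm38.p6, from 250 bases before to 50 after each listed start, were matched for 46 of the 63 transporters. Some genes, Slc7a7 among them, had several starts, and a gene was counted where any of its windows held the motif. The motif TGATGNAA was searched on both strands. It was found in 4.51% of all 27025 genes with a promoter and in 4 of the 46 transporters (8.70%), namely Slc7a11, Slc1a4, Slc7a7 and Slc6a21. The stretches below show the element where it was found in the cystine exchanger, in asparagine synthetase (Asns) and in glycyl-tRNA synthetase (Gars), with the match in capitals and each gene read 5′ to 3′.
Slc7a11, chr3:50443633-50443699, minus strand: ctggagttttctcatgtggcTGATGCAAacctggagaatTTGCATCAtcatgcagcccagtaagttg
Asns, chr6:7693210-7693252, minus strand: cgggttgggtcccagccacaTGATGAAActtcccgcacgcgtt
Gars, chr6:55037951-55037998, plus strand: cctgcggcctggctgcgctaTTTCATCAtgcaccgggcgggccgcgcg
Slc7a11 held a pair of matches, the first at −66 and the second on the other strand at −47 from the start, and Asns and Gars held 1 each, at −23 and −30. Limma did not call Slc7a11 or Asns, and its call of Gars was lost whenever an array was left out.

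The 6 called transporters include 2 with a promoter in the table, and their last 100 bases before the start are shown because they are the only called members that can be read in this way.
Slc6a14, chrX:21714800-21714899, plus strand: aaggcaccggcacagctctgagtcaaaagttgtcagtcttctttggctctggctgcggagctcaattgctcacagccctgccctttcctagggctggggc
Slc7a8, chr14:54781887-54781986, minus strand: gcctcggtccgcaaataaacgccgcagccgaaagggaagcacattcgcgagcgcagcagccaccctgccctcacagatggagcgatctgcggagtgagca
Neither full promoter window held TGATGNAA, nor any of 3 further motifs searched on both strands. The first was the antioxidant element core TGACNNNGC (in 14.0% of all genes with a promoter and in 8 of 46 transporters). The second was the estrogen response element, GGTCA and TGACC with 3 bases between them (in 0.074% and in 0 of 46). The third was the short steroid receptor motif TGTTCT (in 21.3% and in 9 of 46). None of the matches printed above overlapped another of these motifs. A match is only a run of letters, and its absence says only that the letters are not in this window.

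The genes that make, charge and sense amino acids were read from 6 further lists, in which limma found that 5 of 141 distinct genes rose and 5 fell. The calls were 7.09% of these genes, beside 3.63% of all genes. Over all genes limma called 2.57% higher and 1.07% lower, shares to be set beside each of the lists. After adjustment the methods' t-test called 0 genes of these lists. In the list of amino acid response targets 3 of 28 measured genes fell and none rose, and the median change was −0.37. For 14 of the 28 all OVX arrays were below all Cont arrays, beside 10.6% of all genes. Psat1, which makes the serine precursor phosphoserine, read 8.12, 7.66 and 7.35 in Cont and 6.45, 6.15 and 6.45 in OVX. The groups were far apart and it fell 2.57-fold (log2 change −1.36 ± 0.19 SE, adjusted p = 0.00224). Phgdh, the first enzyme of serine synthesis, fell by 0.79 on the log2 scale (adjusted p = 0.0118; without OVX 1, 0.0685), and Gpt2, which makes alanine in mitochondria, fell by 0.91 (adjusted p = 0.00963). Atf4 itself read 8.02, 7.99 and 7.92 in Cont and 7.55, 7.48 and 7.47 in OVX. Its arrays were tight within each group and did not overlap, but the change of −0.48 did not pass (adjusted p = 0.0691), and neither did that of Asns (−0.53, adjusted p = 0.0828).

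**Figure D3:**
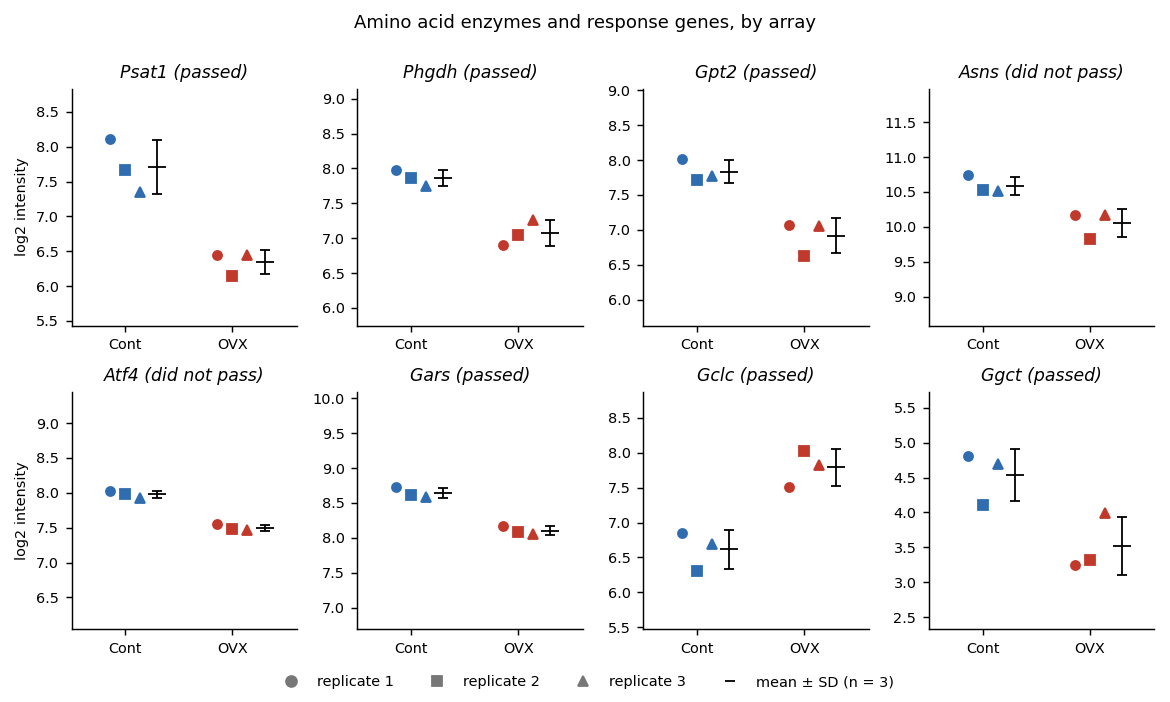
Log2 intensity (vertical axis) of 8 genes of amino acid synthesis, response, tRNA charging and glutathione on each array, with Cont in blue, OVX in red and bars for the mean ± SD of 3 arrays. Psat1, Phgdh, Gpt2, Gars and Ggct lie lower in OVX and Gclc higher at an adjusted p under 0.05, while Asns and Atf4 did not pass, at 0.0828 and 0.0691.

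Of 21 cytosolic aminoacyl-tRNA synthetases and their partners only Gars fell, by 0.54 on the log2 scale (adjusted p = 0.0462), a call that was lost in each of the 6 fits with an array left out (up to 0.155), and the list's median change was −0.22. Of 32 amino acid enzymes 3 fell, the same Psat1, Gpt2 and Phgdh, and Shmt1, which moves a carbon unit from serine to folate, rose by 0.60 (adjusted p = 0.0377). The Shmt1 call was also lost in each fit with an array left out (up to 0.155), and the median of the list was −0.23.

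Among 22 other carriers and partners 3 rose and none fell, with a median change of −0.02. They were Slc16a6 and the proton-coupled peptide transporters Slc15a1 and Slc15a2. Slc15a3 and Slc15a4 of the same family changed by −0.05 and −0.09 and did not pass (adjusted p = 0.889 and 0.880). Slc15a1 (PEPT1) read 5.20, 5.28 and 4.35 in Cont and 7.36, 7.38 and 7.46 in OVX. The OVX arrays were within 0.1 of each other and all above Cont, a change of 2.46 (adjusted p = 8.5e-05). Slc15a2 (PEPT2) rose by 1.56 (adjusted p = 0.000942), and Slc16a6, of the monocarboxylate carrier family, by 2.30 (adjusted p = 6.4e-05). None of 33 genes of amino acid sensing by mTORC1, the kinase that couples amino acid supply to growth, was called by limma or the adjusted methods' t-test. Their median was 0.03. In limma 5 had an unadjusted p under 0.05, beside 8.24% of all genes higher and 7.59% lower. In the t-test 2 did, beside 13.6% of all genes in either direction. The trend and robust options called 2, beside 1104 of all 19505 genes. Sesn3, a sestrin, came nearest at 0.51 (adjusted p = 0.0600), and Castor1, an arginine sensor, changed by 0.97 (adjusted p = 0.103). All Cont arrays and OVX 2 lay under the receptor range for Castor1, so the size of its change is uncertain.

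On the way from cystine to glutathione 1 of 15 genes rose and 1 fell. Gclc, the catalytic subunit of the enzyme that joins glutamate to cysteine, read 6.85, 6.31 and 6.69 in Cont and 7.51, 8.03 and 7.83 in OVX. All OVX arrays were above all Cont arrays, and the change was 1.17 (adjusted p = 0.00413). Ggct, which splits γ-glutamyl amino acids, read 4.81, 4.11 and 4.70 in Cont and 3.24, 3.31 and 3.99 in OVX. Cont 2 and all OVX arrays lay under the receptor range, so the size of its fall is uncertain (log2 change −1.02, adjusted p = 0.0347). It passed in only 2 of the 6 fits with an array left out, and had an adjusted p of 0.141 without OVX 1. Slc7a11, which supplies the cystine, is given above at 0.02.

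Markers of the cell types of the gland differed between the same arrays. Over all genes limma called 2.57% higher and 1.07% lower. An unadjusted p under 0.05 was held by 8.24% of all genes higher and 7.59% lower in limma. In the methods' t-test it was held by 13.6% in either direction. Each list is given by its calls and by its summed linear intensity, which is compared only for the same list between groups and is weighted towards its brightest probe sets. Of 10 acinar markers 4 fell and none rose, and their sum was 19010 to 20640 in Cont and 15620 to 16760 in OVX. All 10 markers of the granular convoluted tubule, the hormone-sensitive duct segment of the rodent gland, rose, and their sum was 10610 to 19550 in Cont and 54390 to 55280 in OVX. All of them except Egf were Klk1b kallikreins, related genes whose probes may share signal, so they are not independent markers. Of 12 duct markers 5 rose (3034 to 3458 against 3985 to 4100), of 8 basal and myoepithelial markers 6 (855 to 1002 against 2567 to 3046), and of 6 fibroblast markers 4 (1026 to 1218 against 1746 to 1961), and none of these fell. None of the 6 adipocyte markers was called by limma or the methods' t-test, though 3 had an unadjusted p under 0.05 in limma and 0 in the t-test. Their median change was −0.57, with sums of 254 to 473 in Cont and 132 to 236 in OVX. Only 2 of the 6 were above the receptor range on every array, so the size of this change is uncertain. Limma called 0 of 29 genes among the markers of B and plasma cells (5), T cells (5), macrophages (5), nerve and glia (4), skeletal muscle (4), endothelium (5) and erythroid cells (1), with an unadjusted p under 0.05 for 5 of them in limma and 2 in the methods' t-test. In the first of these 7 lists 4 markers were under the receptor range on every array. The rises and falls among the transporters and related genes stand beside these shifts in acinar, tubule, duct, myoepithelial and fibroblast markers, and their part in the result was not tested.

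**Figure D4:**
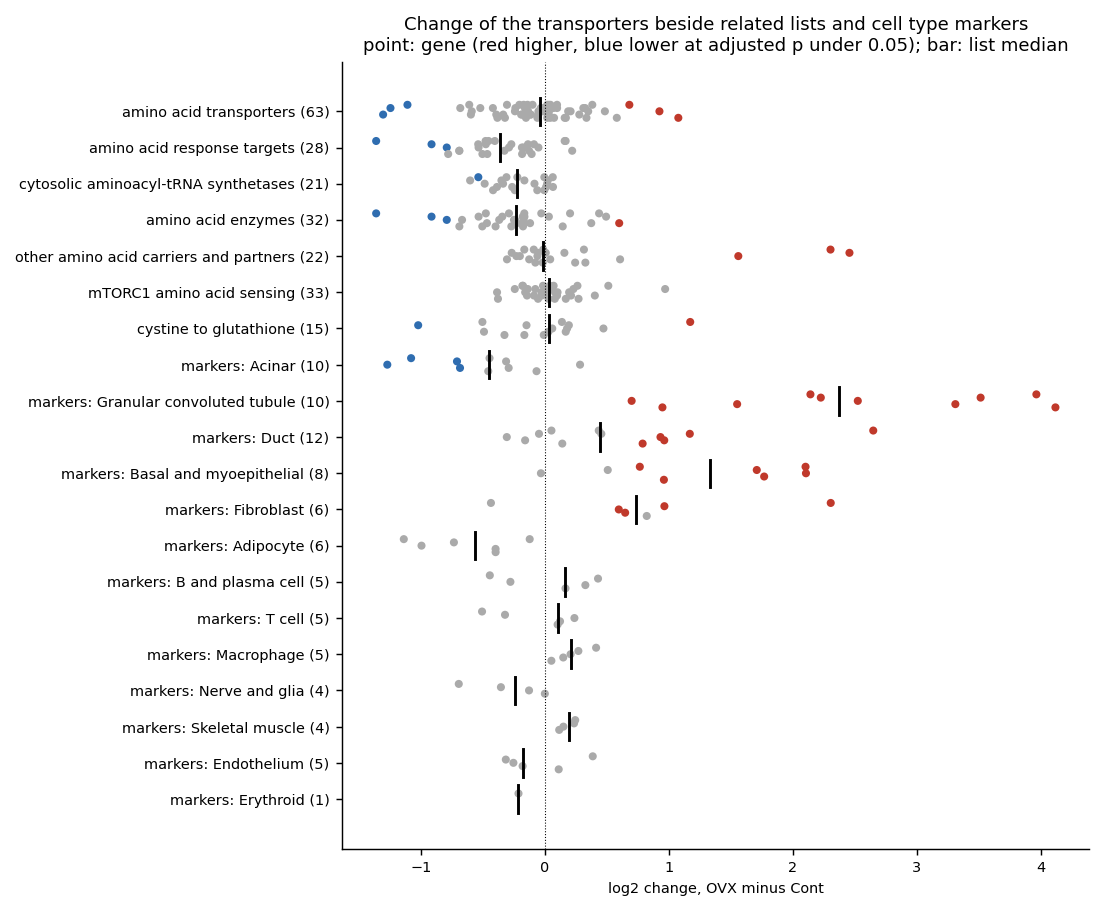
Log2 change after OVX (OVX minus Cont, horizontal axis) of each gene in the transporter set, 6 related lists and 13 lists of cell type markers, with the number of genes in brackets, red and blue points for genes higher or lower at an adjusted p under 0.05, and a bar for the list median. The transporter median is −0.04, that of the amino acid response targets −0.37 and that of the granular convoluted tubule markers 2.37.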

How the data were processed

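The authors scanned 1 Clariom S mouse array per submandibular gland, normalized the 6 arrays together and deposited log2 intensities per probe set. SST-RMA is the method in the paper, and RMA and Affymetrix Power Tools are listed in the submitters' processing notes. For these tools a version was not given in the sources used here, and base 2 was inferred from the largest value, 13.06, and the common medians. RMA compresses changes of dim probe sets, and precision is limited by having 3 arrays a group. Groups and replicate numbers came from the sample labels, which call the replicates biological.

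Probe sets were named by the platform annotation. A single symbol was listed for 19572 of them, and 2634 without one were left out. For 55 genes with several probe sets, none of them a transporter, the one with the highest mean was kept. OVX was compared with Cont by lmFit and eBayes (limma 3.58.1, R 4.3.3) without covariates, two-sided, with p-values adjusted by Benjamini-Hochberg over all named probe sets and calls at 0.05. The methods' t-test was taken in its equal-variance form. The step was tested on simulated data.

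The transporters and all gene lists were chosen with earlier results of these data known. Genes named were the transporters that passed either rule, the one with the smallest p in each family, a fixed set of well-known carriers, and from each related list up to 4 genes that passed or up to 2 that did not. Atf4, Asns, Slc7a6, Slc7a9, Slc6a9, Slc38a7, Slc38a9, Slc15a3, Slc15a4 and the Slc6a20 copies are outside that rule. Alternatives were quantile normalization, centring on the array median, dropping the dimmest 30% of probe sets, trend and robust options, a replicate block, leaving out each array, the methods' t-test, all probe sets, averaging the probe sets of a gene, the study's fold rule, and only members above the receptor range.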

Additional observations from a re-analysis of the deposited data

How the results depend on the processing

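The 6 transporters called were the same 6 with centring, all probe sets, averaging of a gene's probe sets and the replicate block (630 genes called in all). Deviations of same-numbered Cont and OVX arrays from their group means correlated at 0.07, 0.01 and −0.04, beside −0.08 to 0.06 for differently numbered arrays. The check gave no sign of a pairing by number, but with 3 arrays a group it cannot exclude one. With the dimmest 30% dropped 10 transporters were called, adding Slc1a5, Slc43a2, Slc6a4 and Slc7a1, with fewer probe sets tested. The study's fold rule gave 9 by the methods' t-test and 10 by limma, and the adjusted methods' t-test gave 1. Over all genes 709 were called, 1104 with the trend and robust options, 79 by the methods' t-test and 382 (without OVX 1) to 561 with an array left out, where it was 428 without Cont 2, 455 without OVX 2 and 396 without OVX 3. Fits with an array left out called 5 to 7 transporters and put their median change at −0.097 (without OVX 3) to −0.011 (without Cont 2). In the related lists 10 genes were called, 16 with quantile normalization, 23 with the trend and robust options and 6 (without OVX 1) to 12 with an array left out. The near-zero changes turned sign. Slc16a10 was at 0.021 and Slc1a1 at 0.012 with quantile normalization. With an array left out, Slc16a10 ranged from −0.272 to 0.157, Slc1a1 from −0.135 to 0.075, Slc36a1 from −0.014 to 0.139, Slc3a2 from −0.121 to 0.012 and Slc7a11 from −0.045 to 0.1. The cause was not tested. Transporters near or under the receptor range carry little signal over background, so their small changes set no firm limit.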
